A study of Homo sapiens with 8 samples.

Results

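The syndecans SDC1, SDC2, SDC3 and SDC4 and the glypicans GPC1, GPC4 and GPC6 are cell-surface proteins that carry heparan sulfate chains, and their transcripts were followed in bronchial epithelial cells exposed to fibrinogen-related preparations. The members were the rows of the count files with these 7 gene symbols, and they are 7 of the 50006 genes listed in each file. All 7 passed the filter on low counts, as did 16307 genes in all. The cells were BEAS-2B, an immortalised human bronchial epithelial line of wild-type genotype, grown in serum-free LHC-9 medium. They were exposed for 4 h to 1 of 3 preparations, each at 4 ng/µl, or to buffer, with 2 libraries per group and 8 in all. The group aC received the fibrinogen αC domain, FCP received a preparation derived from Der m 1 whose abbreviation the labels do not expand, FBG received fibrinogen and Mock received PBS. Der m 1 is a cysteine protease allergen of the dust mite Dermatophagoides microceras. The series title derives the αC domain from that allergen while the sample labels name fibrinogen, and the sources used here do not state its preparation. The series was set up to look at adhesion-related transcripts.

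A syndecan is a single-pass membrane protein whose outer part carries heparan sulfate and whose short tail binds PDZ-domain and cytoskeletal proteins. A glypican is held in the outer leaflet by a lipid anchor and has no tail in the cell. Both bind growth factors, chemokines and matrix proteins through the sulfated sugar and present them to signalling receptors, and SDC1 and SDC4 are the syndecans best known in epithelium, while SDC2 is typical of mesenchymal cells and SDC3 of neural tissue.

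The 8 libraries fell into 2 sets, aC with FCP and FBG with Mock, by depth and by cell type markers. Total counts were 22248780 to 22258791 in aC, 21680688 to 21715092 in FCP, 15137196 to 15144403 in FBG and 16553366 to 16561302 in Mock, and genes with a count numbered 24556 to 24602, 24283 to 24315, 21417 to 21533 and 20694 to 20747 in the same order of groups. Levels are given as CPM, each library's counts scaled to a common total, after TMM scaling of the totals, which assumes that most genes do not differ. The summed level of 10 epithelial markers was 4420 to 4500 CPM in aC, 4410 to 4470 in FCP, 1150 to 1170 in FBG and 1310 in both Mock libraries, and 10, 10, 6 and 7 of the 10 were above 1 CPM. The summed level of 10 fibroblast markers was 246 to 247 CPM in aC, 235 to 236 in FCP, 1230 to 1240 in FBG and 2390 to 2420 in Mock. KRT5, a basal-cell keratin, averaged 1600 ± 45.9 CPM in aC, 1580 ± 13.3 in FCP, 7.28 ± 0.475 in FBG and 2.03 ± 0.331 in Mock (SD, n = 2 each). CDH1, the epithelial cadherin, averaged 255 ± 0.646 CPM in aC, 250 ± 0.313 in FCP, 9 ± 1.19 in FBG and 4.5 ± 0.71 in Mock, so that this defining marker of the labelled cell type was low in FBG and Mock. COL1A1, a collagen chain of mesenchymal cells, averaged 184 ± 1.9 CPM in aC, 173 ± 0.0716 in FCP, 1090 ± 2.77 in FBG and 2150 ± 17 in Mock. The 10 blood and plasma cell markers summed to 1.75 to 3.06 CPM over all libraries, and the leukocyte gene PTPRC had 1 count in FBG and none in the other groups, below a floor of 3 counts (0.135 to 0.198 CPM). The 6 endothelial markers summed to 0.933 to 4.1 CPM. In the members' results, the effect of the αC domain or FCP and this division of the libraries cannot be told apart wherever aC or FCP is set against FBG or Mock. Only aC against FCP, and FBG against Mock, compare libraries on the same side of it. In bulk RNA, fewer cells of a type and less RNA per cell cannot be told apart either. The labels call the 2 libraries of a group biological replicates but do not say whether they come from separate cultures. The p-values therefore reflect library-to-library spread alone, and that spread may be technical. Within groups, the variance between libraries averaged 1.28 (Mock) to 1.37 (FBG) times that of counting.

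The promoters of SDC1, SDC4 and GPC1 are shown because SDC1 had the largest rise of any member against Mock, SDC4 was the member that differed between aC and FCP, and GPC1 was the most abundant glypican. Each window runs from 250 bases before to 50 bases after a gene start, from RefSeq on GRCh38.p14, and the table held a window for 6 of the 7 members, which for SDC3 and GPC6 lies away from the gene start in the count files. The windows are chr2:20225426-20225725 on the minus strand for SDC1, chr20:45348375-45348674 on the minus strand for SDC4 and chr2:240435413-240435712 on the plus strand for GPC1. Capitals mark matches, on either strand, to the E-box CACCTG or the GC box GGGCGG.
SDC1: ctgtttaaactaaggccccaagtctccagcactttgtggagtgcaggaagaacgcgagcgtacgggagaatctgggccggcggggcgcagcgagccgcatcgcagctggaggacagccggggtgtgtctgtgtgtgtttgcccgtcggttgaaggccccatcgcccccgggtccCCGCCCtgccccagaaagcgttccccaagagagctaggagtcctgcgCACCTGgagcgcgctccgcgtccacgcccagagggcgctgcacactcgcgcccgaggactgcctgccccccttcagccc
SDC4: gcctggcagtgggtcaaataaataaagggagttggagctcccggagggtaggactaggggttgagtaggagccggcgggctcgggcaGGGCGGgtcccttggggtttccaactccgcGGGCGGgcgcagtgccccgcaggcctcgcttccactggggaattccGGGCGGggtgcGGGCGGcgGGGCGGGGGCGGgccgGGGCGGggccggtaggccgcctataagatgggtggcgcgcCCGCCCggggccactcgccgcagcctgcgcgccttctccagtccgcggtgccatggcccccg
GPC1: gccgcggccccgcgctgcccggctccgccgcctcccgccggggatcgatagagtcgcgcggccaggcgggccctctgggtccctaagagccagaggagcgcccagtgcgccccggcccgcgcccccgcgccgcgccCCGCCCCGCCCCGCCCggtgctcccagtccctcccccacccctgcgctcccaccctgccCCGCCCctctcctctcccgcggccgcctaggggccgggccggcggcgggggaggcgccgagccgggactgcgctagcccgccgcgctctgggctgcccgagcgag
SDC1 had 1 E-box and 1 GC box, SDC4 had 8 GC boxes and GPC1 had 4 GC boxes, of which 3 overlap their neighbours by 1 base. Over all 35116 promoter windows of this length, 20.6% held the E-box and 45% held the GC box. The AP-1 motif TGANTCA and the C/EBP motif TTGCNNAA were also searched. They were present in 7.71% and 10.5% of all windows and had no match in the 6 windows of the members. These matches describe letters in a window and say nothing on binding.

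SDC1 and SDC2 moved in opposite directions between the 2 sets of libraries. SDC1 (chromosome 2, 20200797 to 20225475, minus strand), the main syndecan of epithelial surfaces, had 167 and 162 CPM in the aC libraries, 165 and 167 CPM in FCP, 58.8 and 54.9 CPM in FBG and 47.1 and 52.7 CPM in Mock. Every aC and FCP library was far above every FBG and Mock library, and aC and FCP overlapped. In edgeR's quasi-likelihood test, two-sided, with p-values adjusted by Benjamini-Hochberg over all 16307 genes and a call at an adjusted p under 0.05, the log2 fold change was 1.72 ± 0.043 in aC against Mock (SE, adjusted p = 6.59e-17) and 1.73 ± 0.043 in FCP against Mock (adjusted p = 6.26e-17). These are 3.3-fold and 3.33-fold higher levels. Between FBG and Mock the difference was 0.19 ± 0.05 (adjusted p = 0.00384). That call was lost when FBG library 1 was left out (0.14, adjusted p = 0.0817) and when Mock library 1 was left out (0.11, adjusted p = 0.169). The epithelial marker sum moved with SDC1 across the 2 sets of libraries. In FBG against Mock that sum was lower (1150 to 1170 CPM in FBG and 1310 in Mock) and SDC1 higher. The part of these markers in the result was not tested.

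SDC2 (chromosome 8, 96493813 to 96611790, plus strand), the syndecan of mesenchymal cells, had 121 and 133 counts in aC and 125 and 128 in FCP, which are 5.12 and 5.63 CPM and 5.46 and 5.59 CPM. It had 1104 and 1163 counts in FBG and 997 and 965 in Mock, which are 74.4 and 78.4 CPM and 66.5 and 64.3 CPM. The aC and FCP libraries were thus low without overlap with the others. SDC2 fell by 3.60 ± 0.069 on the log2 scale in aC against Mock (adjusted p = 5.33e-22) and by 3.56 ± 0.069 in FCP against Mock (adjusted p = 7.08e-22), which are 12.2 and 11.8 times lower. Counting error alone is larger than these standard errors (0.096 each), and the counting intervals of the log2 fold changes were -3.8 to -3.42 for aC and -3.76 to -3.38 for FCP (95%, exact, counting error only). No other member changed as much against Mock. In FBG against Mock SDC2 was 0.22 ± 0.057 higher (adjusted p = 0.00218), a call lost without FBG library 2 (0.18, adjusted p = 0.0546). The count of SDC1 per count of SDC2 was 32.6 and 28.8 in aC, 30.3 and 29.8 in FCP, 0.791 and 0.701 in FBG and 0.708 and 0.82 in Mock, so that the gene with more reads of the pair changed between the sets. Across the 2 sets of libraries the fibroblast marker sum, most of it COL1A1, moved with SDC2 and the epithelial sum against it. Of the 7 fibroblast markers tested, FAP moved the other way (4.29 ± 0.0296 CPM in aC, 4.74 ± 0.276 in FCP, 1.04 ± 0.238 in FBG and 0.8 ± 0.000545 in Mock), and in FBG against Mock the fibroblast sum was lower and SDC2 higher. Their part in the result was not tested.

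**Figure D1:**
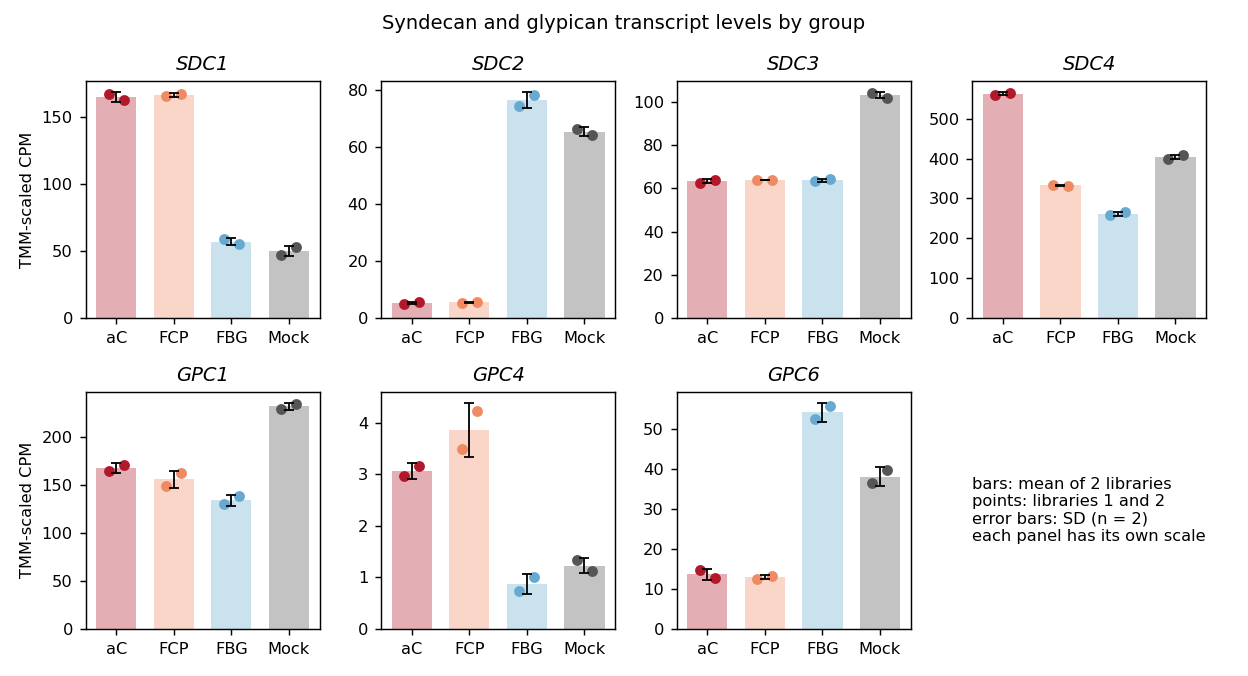
Transcript level of each syndecan and glypican, in TMM-scaled CPM, in aC, FCP, FBG and Mock libraries. Bars are means of 2 libraries, points are the libraries and error bars are SD. SDC1 stands near 165 CPM in aC and 166 CPM in FCP, against 56.9 CPM in FBG and 49.9 CPM in Mock, and SDC2 goes the other way.

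SDC3 (chromosome 1, 30869466 to 30909735, minus strand), a syndecan first known from nerve tissue, did not follow that division. It had 62.6 and 64 CPM in aC, 63.9 and 64 CPM in FCP, 63.3 and 64.2 CPM in FBG and 104 and 102 CPM in Mock. The libraries of the 3 exposed groups overlapped, and both Mock libraries lay above them. It fell by 0.70 ± 0.038 on the log2 scale in aC against Mock (adjusted p = 9.93e-14), by 0.68 ± 0.038 in FCP against Mock (adjusted p = 1.56e-13) and by 0.69 ± 0.039 in FBG against Mock (adjusted p = 1.05e-12). These 3 comparisons use the same 2 Mock libraries. Over the alternative settings of the processing, the differences ran from -0.73 to -0.47 in aC, -0.71 to -0.46 in FCP and -0.71 to -0.52 in FBG. SDC3 was not called in aC against FBG, where the 95% interval of the log2 difference from the fit was -0.09 to 0.07, nor in FCP against FBG, where it was -0.08 to 0.09. Both differences depend on the processing. With GC content and length trends removed they were -0.21 (adjusted p = 2.68e-05) and -0.15 (adjusted p = 0.00201), and with library totals as the only scaling both were 0.11 (adjusted p = 0.019 and 0.0155).

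SDC4 (chromosome 20, 45325288 to 45348424, minus strand), the widely expressed syndecan of focal adhesions, separated all 4 groups and was the member that differed between aC and FCP. It had 13250 and 13366 counts in aC, 7638 and 7602 in FCP, 3828 and 3929 in FBG and 5999 and 6129 in Mock. As levels these were 560 and 565 CPM in aC, 334 and 332 CPM in FCP, 258 and 265 CPM in FBG and 400 and 408 CPM in Mock. No groups overlapped, with aC highest, then Mock, FCP and FBG. SDC4 was higher in aC than in FCP by 0.76 ± 0.018 on the log2 scale, or 1.69-fold (adjusted p = 9.72e-19). The epithelial marker sums of these groups were 4420 to 4500 CPM in aC and 4410 to 4470 in FCP, and the fibroblast marker sums 246 to 247 and 235 to 236. Within these sums 5 of 10 epithelial markers were called, beside 9.01% of all tested genes (4.57% higher and 4.45% lower). Of the 5, 2 were higher in aC (TP63 at 109 ± 1.28 CPM in aC and 79.3 ± 0.24 in FCP, and KRT17). The other 3 were lower (KRT18, KRT8 and ESRP1), and COL1A1 was 0.09 ± 0.021 higher in aC. The part of these markers in the SDC4 result was not tested. Against Mock, SDC4 rose in aC by 0.48 ± 0.018 (adjusted p = 1.29e-16), fell in FCP by 0.28 ± 0.019 (adjusted p = 5.62e-12) and fell in FBG by 0.63 ± 0.02 (adjusted p = 6.81e-17). The FCP call was lost with GC content and length trends removed (-0.04, adjusted p = 0.106). It was 1.11 ± 0.019 higher in aC than in FBG (adjusted p = 1.08e-22) and 0.35 ± 0.02 higher in FCP than in FBG (adjusted p = 5.34e-13).

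GPC1 (chromosome 2, 240435663 to 240468076, plus strand), a glypican that binds fibroblast growth factors, was the most abundant glypican. It had 164 and 171 CPM in aC, 149 and 162 CPM in FCP, 130 and 138 CPM in FBG and 229 and 234 CPM in Mock. Both Mock libraries lay above all others. It fell by 0.47 ± 0.042 in aC against Mock (adjusted p = 3.81e-06), by 0.58 ± 0.043 in FCP against Mock (adjusted p = 7.34e-07) and by 0.79 ± 0.045 in FBG against Mock (adjusted p = 2.19e-07), all on the log2 scale. Over the alternative settings GPC1 ran from -0.49 to -0.24 in aC, -0.64 to -0.36 in FCP and -0.84 to -0.51 in FBG. It was 0.32 ± 0.045 higher in aC than in FBG (adjusted p = 0.000123) and 0.21 ± 0.045 higher in FCP than in FBG (adjusted p = 0.00239). In aC against FCP it did not pass the test (0.11 ± 0.042, adjusted p = 0.169, 95% interval from the fit 0.02 to 0.21), although the libraries did not overlap. That difference was called with no filter on low counts (0.11, adjusted p = 0.00132) and without FCP library 2 (0.17, adjusted p = 0.00885). It was smaller without FCP library 1 (0.05, adjusted p = 0.61), without aC library 2 (0.08, adjusted p = 0.557) and with GC content and length trends removed (0.01, adjusted p = 0.941). The gene MIR149 lies within GPC1 on the same strand over 89 bases and had no counts.

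GPC4 and GPC6 moved in opposite directions, GPC4 at a low level. GPC4 (chromosome X, 133300103 to 133415489, minus strand), a glypican known for its part in Wnt signalling, had 70 and 75 counts in aC, 80 and 97 in FCP, 11 and 15 in FBG and 20 and 17 in Mock. These are 2.96 to 3.17 CPM in aC, 3.49 to 4.23 in FCP, 0.741 to 1.01 in FBG and 1.13 to 1.33 in Mock, with aC and FCP above the others. It rose by 1.31 ± 0.26 in aC against Mock (adjusted p = 9.2e-05) and by 1.64 ± 0.26 in FCP against Mock (adjusted p = 5.16e-06), on the log2 scale. The counting intervals of the folds were wide, 1.72 to 3.67 for aC and 2.19 to 4.6 for FCP. In FBG against Mock it was not called (-0.49 ± 0.29, adjusted p = 0.264), and at 26 and 37 summed counts the 95% interval of that log2 difference from the fit ran from -1.1 to 0.12. Counting error alone gave a wider interval, -1.28 to 0.27.

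GPC6 (chromosome 13, 93216529 to 94408020, plus strand), a glypican close in sequence to GPC4, had 14.6 and 12.7 CPM in aC, 12.5 and 13.2 CPM in FCP, 52.4 and 55.7 CPM in FBG and 36.3 and 39.7 CPM in Mock. The aC and FCP libraries overlapped and lay below both other groups, and FBG lay above Mock. GPC6 fell by 1.48 ± 0.076 in aC against Mock (adjusted p = 4.35e-14) and by 1.56 ± 0.077 in FCP against Mock (adjusted p = 1.79e-14), on the log2 scale, and it rose by 0.51 ± 0.072 in FBG against Mock (adjusted p = 3.01e-06). Of the other glypicans, GPC3 did not pass the filter on low counts. GPC2 averaged 1.18 ± 0.419 CPM in aC, 0.983 ± 0.402 in FCP, 1.04 ± 0.0479 in FBG and 1.1 ± 0.329 in Mock (SD, n = 2 each). GPC5 averaged 2.43 ± 0.149, 1.79 ± 0.186, 0.505 ± 0.0478 and 1.2 ± 0.0951 CPM in the same groups, and its calls in aC against Mock (higher) and FBG against Mock (lower) were both lost with DESeq2's Wald test (adjusted p = 0.0691 and 0.0894). The FBG call was also lost without Mock library 1 (0.0534) and without FBG library 2 (0.061).

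Large shares of the tested genes were called in every comparison but aC against FCP, so the counts of members called are set beside that background. In aC against Mock 3 members were higher and 4 lower, where 74.7% of all tested genes were called (38% higher and 36.7% lower). In FCP against Mock 2 were higher and 5 lower, with 73.4% of all genes called (37.3% higher and 36.1% lower). In FBG against Mock 3 were higher, 3 lower and GPC4 was not called, with 50.4% of all genes called (24.2% higher and 26.3% lower). Against FBG, 4 members were higher and 2 lower in aC (68.3% of all genes called, 33.8% higher and 34.5% lower), and 4 were higher and 2 lower in FCP (66.8%, 32.6% higher and 34.2% lower). Between aC and FCP only SDC4 was called, where 9.01% of all genes were (4.57% higher and 4.45% lower). The median log2 fold change of the members was -0.47 in aC against Mock, -0.58 in FCP against Mock, -0.49 in FBG against Mock and -0.01 in aC against FCP, beside medians of 0.06, 0.06, 0.02 and 0 over all tested genes. From the fit, the 95% intervals of the log2 difference between aC and FCP were -0.09 to 0.07 for SDC1, -0.21 to 0.13 for SDC2, -0.09 to 0.06 for SDC3, -0.81 to 0.14 for GPC4 and -0.08 to 0.25 for GPC6. For SDC2 counting error alone gave a wider interval, -0.3 to 0.22.

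**Figure D2:**
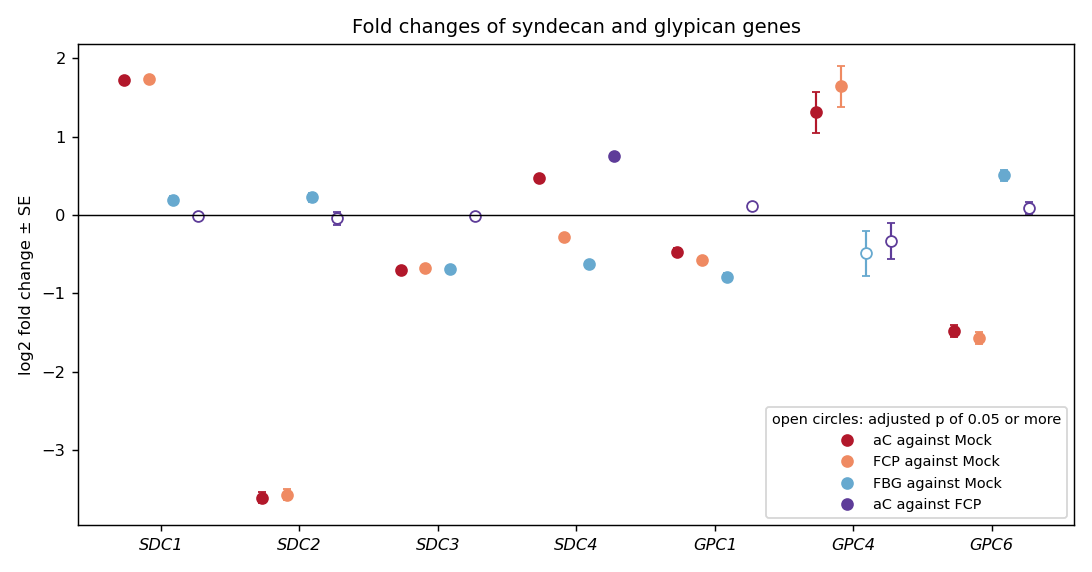
Log2 fold changes (y axis, ± SE from the edgeR fit) of the 7 genes in aC, FCP and FBG against Mock and in aC against FCP. Filled circles passed an adjusted p of 0.05. SDC2 stands lowest at -3.60 in aC and -3.56 in FCP against Mock, and SDC4 is the only filled circle of aC against FCP, at 0.76.

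Levels of different genes were compared as CPM per kilobase of annotated exon. SDC4 was the most abundant member in every group, at 215 ± 1.34 in aC, 127 ± 0.486 in FCP, 100 ± 1.82 in FBG and 155 ± 2.24 in Mock (SD, n = 2 each). In aC and FCP, SDC1 came next (42.1 ± 0.893 and 42.5 ± 0.256), then GPC1 (32.7 ± 1.02 and 30.3 ± 1.79) and SDC3 (8.51 ± 0.133 and 8.6 ± 0.0125). GPC4, GPC6 and SDC2 were all below 1 there, and GPC4 (0.618 ± 0.0302) and GPC6 (0.601 ± 0.0578) did not differ beyond their spread in aC. In FBG and Mock, GPC1 came second (26.2 ± 1.12 and 45.2 ± 0.595). SDC1 (14.6 ± 0.711) was above SDC3 (8.57 ± 0.0879) in FBG, while SDC1 (12.8 ± 1.02) and SDC3 (13.8 ± 0.187) lay within the spread of SDC1 in Mock. SDC2 (3.92 ± 0.143 and 3.35 ± 0.0797), GPC6 (2.38 ± 0.104 and 1.67 ± 0.107) and GPC4 (0.177 ± 0.0384 and 0.249 ± 0.0287) followed. The annotated exons of SDC2 and GPC6 cover 19493 and 22729 bases, far more than 1 transcript of theirs. Per kilobase of the longest GENCODE transcript, an alternative chosen after seeing the data, SDC2 was at 20.3 in FBG and 17.4 in Mock, above SDC1 (17.3 and 15.2) in both, and GPC6 was at 8.36 and 5.88. By that length GPC6 was at 2.11 in aC and 1.99 in FCP and SDC2 at 1.43 and 1.47, all above GPC4 (0.618 and 0.779), so the order of these 3 in aC and FCP depends on the length used.

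The summed syndecan level per kilobase of annotated exon was 266 and 267 in aC, 179 in both FCP libraries, 126 and 128 in FBG and 183 and 187 in Mock. SDC4 made up 80.7% and 81.1% of it in aC, 71.4% and 71.1% in FCP, 78.3% and 79.1% in FBG and 83.9% and 83.7% in Mock. SDC1 made up 16.1% and 15.6% in aC, 23.7% and 23.9% in FCP, 11.9% and 11% in FBG and 6.61% and 7.23% in Mock. The SDC1 share was thus highest in FCP, where SDC1 itself was level with aC and SDC4 was lower. SDC2 made up 0.0987% to 0.161% in aC and FCP and 1.77% to 3.14% in FBG and Mock. With the longest transcript as length, SDC2 made up 0.493% to 0.786% and 8.33% to 14%.

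**Figure D3:**
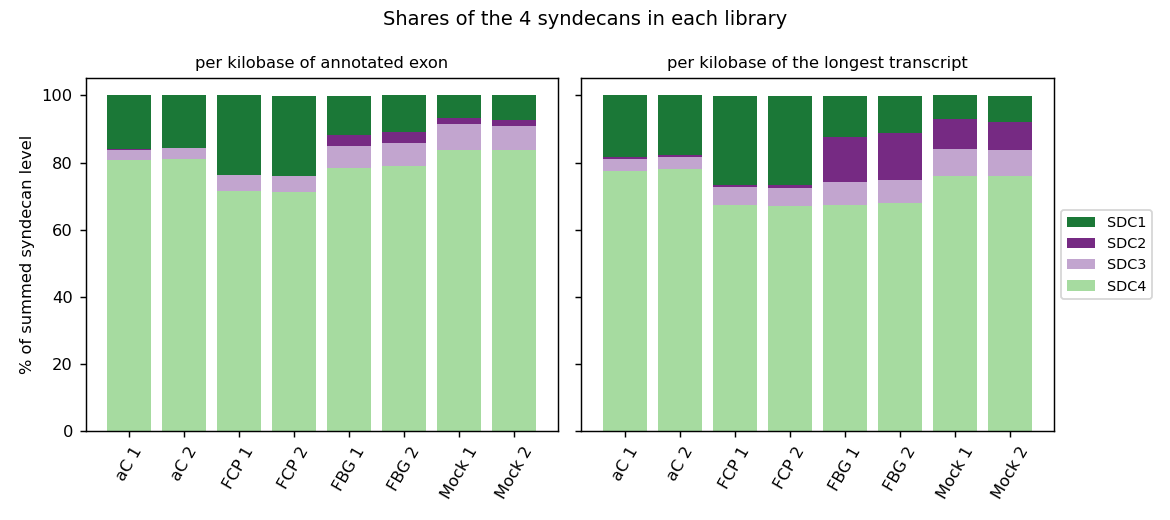
Share of each syndecan in the summed syndecan level per kilobase, in % (y axis), in each library of aC, FCP, FBG and Mock, by 2 measures of gene length. SDC4 takes most of the level in every library, from 71.1% to 83.9% per kilobase of annotated exon, and the SDC2 band is visible in FBG and Mock.

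Of the enzymes that build the heparan sulfate chain, more were called lower than higher against Mock. Of 12 chain assembly genes 10 were tested. In aC against Mock 1 was higher and 7 were lower, in FCP against Mock likewise 1 and 7, and in FBG against Mock 6 were lower, beside 36.7%, 36.1% and 26.3% of all tested genes lower. With GC content and length trends removed 6, 6 and 4 were lower. The median log2 fold changes of the tested genes were -0.34, -0.37 and -0.16. B3GALT6, which adds the third sugar of the linker to the protein, averaged 25.7 ± 0.211 CPM in aC, 23.9 ± 0.513 in FCP, 42.8 ± 1.8 in FBG and 50.4 ± 0.93 in Mock (SD, n = 2 each). It fell by 0.97 ± 0.059 in aC against Mock and by 1.07 ± 0.059 in FCP against Mock, on the log2 scale. EXT1 and EXT2, the pair that polymerises the chain, fell by 0.40 ± 0.034 and 0.43 ± 0.035 in aC, by 0.42 ± 0.034 and 0.42 ± 0.035 in FCP and by 0.15 ± 0.035 and 0.41 ± 0.037 in FBG against Mock. The EXT1 call in FBG was lost with library totals as the only scaling (-0.04, adjusted p = 0.433). XYLT2, which starts the chain by adding xylose to the core protein, fell by 0.41 ± 0.032 in FBG against Mock. XYLT2 averaged 114 ± 3.19 CPM in aC, 111 ± 1.71 in FCP, 103 ± 0.645 in FBG and 138 ± 0.518 in Mock. EXTL3, which adds the first chain sugar, was higher in aC (0.15 ± 0.039) and FCP (0.12 ± 0.039), but with GC content and length trends removed it was at 0 and -0.02, and the FCP call was lost without FCP library 1 (adjusted p = 0.119). In FBG against Mock the split was 2 higher and 3 lower with library totals as the only scaling. For aC against FCP edgeR called 0 of the 10, with 2 at an unadjusted p under 0.05, DESeq2 also called 0, and edgeR on only these 2 groups called 1, lower in aC. In the main fit 9.01% of all tested genes were called there.

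The enzymes that edit the chain changed in both directions. Against Mock, 74.7% (aC), 73.4% (FCP) and 50.4% (FBG) of all tested genes were called. Of 20 modification and trimming genes 11 were tested. Of the 11, 4 were higher and 6 lower in aC against Mock, 4 and 6 in FCP and 2 and 3 in FBG. Only 2 were higher without Mock library 1 in either, without aC library 2 in aC and without FCP library 1 in FCP, and DESeq2 called 2 and 5 in aC and 1 and 2 in FBG. The sulfatases SULF1 and SULF2 remove 6-O-sulfate groups outside the cell, and they moved in opposite directions. SULF1 averaged 8.16 ± 0.599 CPM in aC, 6.92 ± 0.522 in FCP, 91.6 ± 3.17 in FBG and 33.1 ± 0.871 in Mock (SD, n = 2 each). It fell by 2.02 ± 0.073 in aC and by 2.26 ± 0.074 in FCP against Mock, and rose by 1.47 ± 0.065 in FBG against Mock, on the log2 scale (adjusted p = 5.51e-17, 1.1e-17 and 1.37e-14). SULF2 averaged 63.7 ± 0.184 CPM in aC, 63.8 ± 0.772 in FCP, 17 ± 0.663 in FBG and 16.6 ± 0.483 in Mock. It rose by 1.94 ± 0.058 in aC against Mock and equally in FCP against Mock (adjusted p = 1.94e-18 and 2.1e-18). The pair was therefore split between the 2 sets of libraries as SDC1 and SDC2 were, and SULF1 also separated FBG from Mock. HPSE, the heparanase that cuts the chain, averaged 6.41 ± 0.388 CPM in aC, 5.41 ± 0.744 in FCP, 25.2 ± 1.34 in FBG and 30 ± 2.95 in Mock, and fell by 2.23 ± 0.11 and 2.47 ± 0.11 in aC and FCP against Mock (adjusted p = 9.02e-15 and 1.95e-15). In FBG against Mock it was at -0.25 ± 0.099 (adjusted p = 0.0371), a call lost with library totals as the only scaling (-0.14, adjusted p = 0.261), with DESeq2's Wald test (adjusted p = 0.113), without either FBG library (adjusted p = 0.0632 and 0.216) and without Mock library 2 (0.343). HS3ST1, a 3-O-sulfotransferase, had 66 summed counts in aC, 46 in FCP and 3 in Mock, and the scaled ratios to Mock were 14 (95% counting interval 4.57 to 69.4) and 10 (3.23 to 50.5). The 3 Mock counts were all in library 2, and the log2 fold changes ran from 2.75 without Mock library 1 to 7.78 without Mock library 2 in aC, and from 2.28 to 7.31 in FCP. HS6ST1, a 6-O-sulfotransferase, averaged 27.8 ± 1.32 CPM in aC, 26 ± 1.03 in FCP, 34.4 ± 0.15 in FBG and 44.1 ± 0.878 in Mock. It fell by 0.36 ± 0.062 in FBG against Mock, though not with GC content and length trends removed (-0.14, adjusted p = 0.072).

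NDST1, the N-deacetylase and N-sulfotransferase that starts sulfation, averaged 229 ± 2.02 CPM in aC, 226 ± 0.849 in FCP, 219 ± 4.53 in FBG and 232 ± 3.19 in Mock. Its log2 differences from Mock were -0.02 ± 0.023, -0.03 ± 0.023 and -0.09 ± 0.024, and with library totals as the only scaling they were 0.21, 0.19 and 0.03. The FBG difference was called (adjusted p = 0.00516), but not without FBG library 1 (0.113). HS2ST1, the 2-O-sulfotransferase, was 0.16 ± 0.05 higher in aC, 0.18 ± 0.05 in FCP and 0.20 ± 0.051 in FBG than in Mock, but with GC content and length trends removed these were -0.43, -0.41 and -0.21, so its direction depends on that choice. Its calls were also lost without Mock library 1 (adjusted p = 0.147, 0.084 and 0.0593), without aC library 2 in aC (0.0856) and without FCP library 1 in FCP (0.0808). With GC content and length trends removed, 2 modification genes were higher and 8 lower in both aC and FCP against Mock. Comparing aC with FCP, edgeR called 0 of the 11, with 3 at an unadjusted p under 0.05, and DESeq2 also called 0. The edgeR share over all tested genes was 9.01%.

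**Figure D4:**
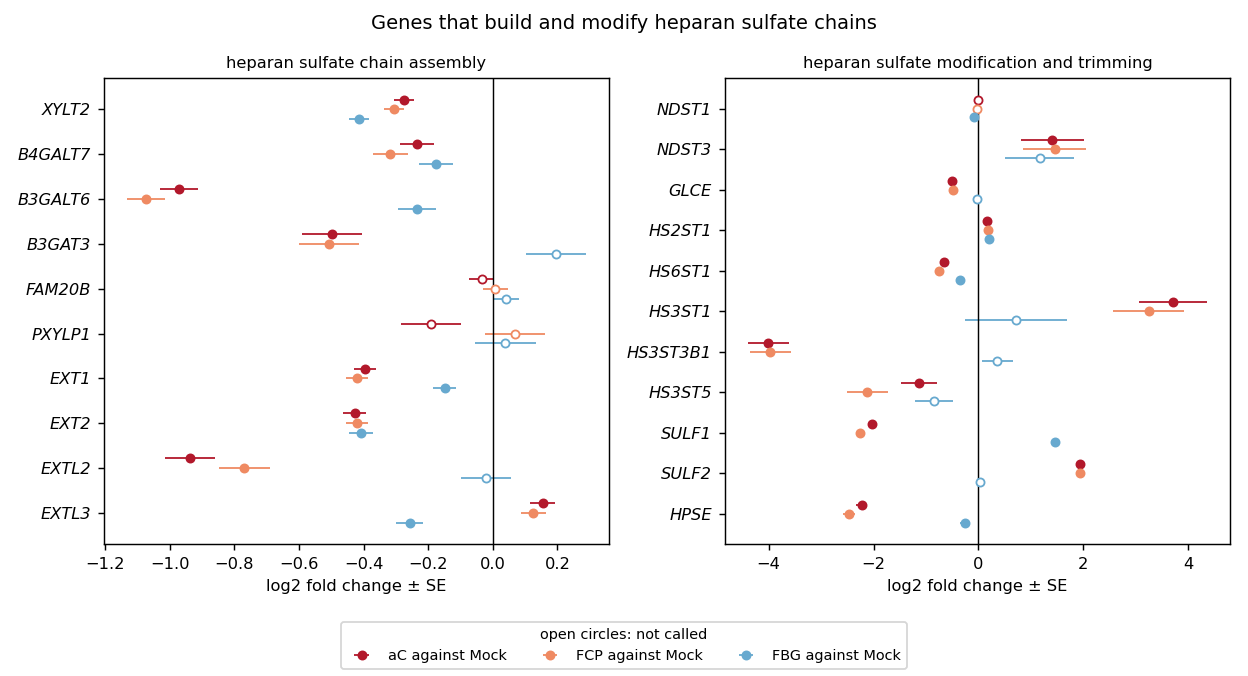
Log2 fold changes against Mock (x axis, ± SE from the edgeR fit) of the tested genes that assemble (left) and modify or trim (right) heparan sulfate chains, in aC, FCP and FBG. Filled circles were called. SULF1 lies at -2.02 in aC, -2.26 in FCP and 1.47 in FBG, and SULF2 at 1.94 in aC and FCP.

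The other proteoglycans that carry heparan sulfate numbered 10, all tested. Against Mock 2 were higher and 6 lower in aC, 2 and 6 in FCP, and 1 and 6 in FBG, beside 74.7%, 73.4% and 50.4% of all tested genes called. SRGN, serglycin of secretory granules, averaged 34.7 ± 2.42 CPM in aC, 33.9 ± 0.51 in FCP, 315 ± 2.59 in FBG and 358 ± 0.463 in Mock (SD, n = 2 each) and fell by 3.37 ± 0.033 and 3.40 ± 0.033 on the log2 scale in aC and FCP against Mock. HSPG2, perlecan of the basement membrane, averaged 162 ± 0.131 CPM in aC, 139 ± 2.85 in FCP, 124 ± 0.545 in FBG and 289 ± 3.97 in Mock. It was lower than Mock in all 3 (-0.84, -1.06 and -1.22). AGRN, agrin, another basement membrane proteoglycan, averaged 637 ± 6.15 CPM in aC, 561 ± 6.43 in FCP, 306 ± 2.65 in FBG and 508 ± 0.644 in Mock, so it was above Mock in aC and FCP and below it in FBG. CD44, the hyaluronan receptor with heparan sulfate on some isoforms, fell by 1.23 ± 0.029 in FBG against Mock. CD44 averaged 181 ± 3.55 CPM in aC, 177 ± 4.52 in FCP, 106 ± 0.451 in FBG and 248 ± 4.5 in Mock, so its mean was below Mock in all 3. SPOCK2, a small matrix proteoglycan, was higher than Mock in aC, FCP and FBG (1.88 ± 0.26, 1.61 ± 0.26 and 1.40 ± 0.27). HSPG2 and AGRN were the 2 of 10 called in aC against FCP, both higher in aC (0.22 ± 0.025 and 0.18 ± 0.017). In that comparison 9.01% of all tested genes were called and 4.57% were higher.

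Among the proteins that act with syndecan tails, 4 of 9 tested genes were higher and 4 lower in aC against Mock, 4 and 3 in FCP against Mock and 2 and 3 in FBG against Mock, where library totals as the only scaling gave 5 and 3. The shares of all tested genes called were 74.7%, 73.4% and 50.4% in the same order. ACTN4, counted among the 9, had only 10 to 27 summed counts per group. PRKCA, the kinase that binds the SDC4 tail, averaged 21.2 ± 0.33 CPM in aC, 21.4 ± 0.947 in FCP, 104 ± 2.07 in FBG and 150 ± 4.96 in Mock (SD, n = 2 each). It fell by 2.82 ± 0.045 in aC and by 2.81 ± 0.045 in FCP against Mock, and by 0.53 ± 0.04 in FBG. SDC4 itself was higher in aC than in Mock, so the 2 transcripts moved in opposite directions there. EZR, ezrin, which links membrane proteins to actin, rose by 0.67 ± 0.016, 0.83 ± 0.016 and 0.11 ± 0.018 in aC, FCP and FBG against Mock, and was 0.17 ± 0.015 lower in aC than in FCP. GIPC1, a PDZ protein that binds SDC4, fell by 0.70 ± 0.026 in both aC and FCP against Mock, and by 0.23 ± 0.026 in FBG, where it was at 0.06 with GC content and length trends removed. SDCBP, syntenin, the PDZ partner of all syndecans, rose by 0.29 ± 0.041 in aC and by 0.19 ± 0.041 in FCP, and fell by 0.34 ± 0.043 in FBG against Mock. With GC content and length trends removed the aC and FCP values were 0 and -0.11. PDCD6IP (ALIX), which works with syntenin in exosome formation, was 0.15 ± 0.023 higher in FCP than in Mock, and -0.27 in that setting. PALS1, a polarity scaffold, was 0.29 ± 0.05 higher in FBG than in Mock and 0.02 in that setting. The counts of higher and lower genes in that setting were 1 and 5 in aC and 1 and 6 in FCP against Mock, so the split of this list depends on it.

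Of 11 enzymes that shed syndecans, release glypicans or process them, 9 were tested. In aC against Mock 7 were higher and 2 lower, in FCP against Mock 6 and 2, and in FBG against Mock 3 and 1, while with GC content and length trends removed these were 5 and 4, 5 and 4, and 3 and 2. Without that removal 38%, 37.3% and 24.2% of all tested genes were higher, and 36.7%, 36.1% and 26.3% lower. MMP14, a membrane-bound metalloprotease that cleaves SDC1, averaged 274 ± 0.0702 CPM in aC, 266 ± 1.94 in FCP, 121 ± 3.93 in FBG and 123 ± 1.14 in Mock (SD, n = 2 each). It rose by 1.16 ± 0.026 in aC and by 1.11 ± 0.026 in FCP against Mock (adjusted p = 6.2e-21 and 1.57e-20). MMP2, a secreted gelatinase, averaged 1.54 ± 0.149 CPM in aC, 1.51 ± 0.34 in FCP, 15.3 ± 0.473 in FBG and 9.13 ± 1.41 in Mock, and it fell by 2.56 ± 0.18 and 2.59 ± 0.18 in aC and FCP. ADAM10, a membrane sheddase, was 0.48 ± 0.033, 0.51 ± 0.033 and 0.51 ± 0.034 higher in aC, FCP and FBG than in Mock, but -0.34, -0.30 and 0 with GC content and length trends removed. GDPD5, which cleaves the lipid anchor of some glypicans, fell by 0.86 ± 0.17 in aC and by 0.75 ± 0.16 in FCP. FURIN, the protease that processes glypican precursors, fell by 0.60 ± 0.043 in FBG against Mock. PCSK6, a related protease, rose by 1.88 ± 0.27 in FBG against Mock, and by 1.49 to 2.41 with 1 library left out. PCSK6 averaged 3.38 ± 0.419 CPM in aC, 3.76 ± 0.122 in FCP, 3.57 ± 0.0945 in FBG and 0.966 ± 0.424 in Mock. The Mock level rests on 29 summed counts. MMP9, a gelatinase, had 204 summed counts in aC and 99 in FCP, and was called higher in aC than in FCP (1.00 ± 0.3, adjusted p = 0.0422). That call was lost when any 1 of the 4 libraries was left out (0.85 to 1.13). It was also lost in the edgeR fit with the replicate block (0.99, adjusted p = 0.0584), and DESeq2's Wald test gave MMP9 no adjusted p there.

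The growth factors and chemokines that bind heparan sulfate were split. Of 16 tested ligands 9 were higher and 6 lower in aC against Mock, 6 and 7 in FCP against Mock and 6 and 5 in FBG against Mock. These counts stand beside 74.7%, 73.4% and 50.4% of all tested genes called. AREG, a ligand of the EGF receptor, averaged 27.8 ± 1.43 CPM in aC, 29.4 ± 1.93 in FCP, 3.77 ± 0.191 in FBG and 2.77 ± 0.0452 in Mock (SD, n = 2 each) and rose by 3.32 ± 0.11 and 3.41 ± 0.11 in aC and FCP against Mock. PDGFA and PDGFB, the platelet-derived growth factor chains, moved apart. PDGFA rose by 1.95 ± 0.061 in aC and by 1.96 ± 0.061 in FCP, and PDGFB fell by 0.83 ± 0.038 in aC and by 1.02 ± 0.039 in FCP and rose by 0.58 ± 0.037 in FBG. BMP4, a bone morphogenetic protein, fell by 3.13 ± 0.1 in aC and by 2.90 ± 0.099 in FCP against Mock. In FBG against Mock WNT7B, a Wnt ligand, rose by 1.05 ± 0.059. SLIT2, a guidance factor, fell there by 1.26 ± 0.19 and MDK, midkine, by 0.32 ± 0.052. The MDK difference was only -0.03 with GC content and length trends removed. MDK averaged 53.1 ± 0.684 CPM in aC, 50.2 ± 0.0995 in FCP, 54 ± 4.61 in FBG and 67.4 ± 0.991 in Mock. Between aC and FCP 4 of 16 ligands differed, all higher in aC, where 9.01% of all tested genes were called and 4.57% were higher. CXCL8, the neutrophil chemokine, averaged 31.6 ± 0.331 CPM in aC, 11.1 ± 0.252 in FCP, 9.64 ± 0.193 in FBG and 14.1 ± 1.8 in Mock, and was 2.84-fold higher in aC than in FCP (adjusted p = 7.66e-11). Its order of group means, aC, Mock, FCP and FBG, was that of SDC4. The SDC4 difference between FCP and Mock was only -0.04 with GC content and length trends removed. For CXCL8 only the step from aC to FCP is given with a test. FGF2, basic fibroblast growth factor, was 0.36 ± 0.051 higher in aC than in FCP (adjusted p = 4.45e-05).

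The receptors that act together with these proteoglycans were likewise split, with 9 of 17 higher and 7 lower in aC against Mock. In FCP against Mock 7 were higher and 7 lower, and in FBG against Mock 5 and 9. The shares of all tested genes called were 74.7% (aC), 73.4% (FCP) and 50.4% (FBG). PTPRF, a receptor phosphatase of a family that binds heparan sulfate, averaged 875 ± 4.18 CPM in aC, 872 ± 3.32 in FCP, 353 ± 0.266 in FBG and 480 ± 7.16 in Mock (SD, n = 2 each). EGFR averaged 526 ± 8.11, 463 ± 1.29, 321 ± 10.7 and 273 ± 5.28 CPM in the same groups. FGFR1, which needs heparan sulfate to bind its ligands, averaged 28.2 ± 1.34, 28.1 ± 1.31, 61.2 ± 3.94 and 96.4 ± 2.66 CPM, and LRP1, an endocytic receptor, 197 ± 6.44, 180 ± 4.44, 388 ± 12.5 and 425 ± 4.16 CPM. PTPRF and EGFR were thus higher, and FGFR1 and LRP1 lower, in aC and FCP than in Mock. The integrin chains ITGAV and ITGB3, which pair as a fibrinogen and vitronectin receptor, rose by 0.44 ± 0.04 and 1.47 ± 0.068 in FBG against Mock, and IGF1R fell there by 0.67 ± 0.025. With GC content and length trends removed the ITGAV call was lost (0.06, adjusted p = 0.256). In aC and FCP, ITGAV was 1.26 ± 0.037 and 1.04 ± 0.037 higher and ITGB3 1.18 ± 0.072 and 1.40 ± 0.074 lower than in Mock. In aC against FCP 4.57% of all tested genes were called higher and 4.45% lower. Of the 17, 5 were higher and 1 lower in aC than in FCP, among them EGFR (0.19 ± 0.019), ITGAV (0.22 ± 0.033) and ITGB1 (-0.09 ± 0.0091). Without FCP library 2, and without aC library 2, these were 2 and 1, and with DESeq2's Wald test 3 and 1.

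For each member the 3 genes with the nearest profile were taken, by the Euclidean distance of log2 CPM centred on each gene's own mean over the 8 libraries, among 11277 candidates with a mean of at least 50 counts. For SDC4 these were CEBPD, a transcription factor (distance 0.117), NINJ1, a cell adhesion protein (0.164), and CLDN1, a tight junction claudin (0.255). In aC against FCP their log2 fold changes were 0.85, 0.77 and 0.74, beside 0.76 for SDC4. For SDC1 they were MEAK7 (0.207), ESRP2, an epithelial splicing factor (0.249), and KRT17, a basal keratin (0.268). For SDC2 they were P3H2, a collagen prolyl hydroxylase (0.21), SYT11 (0.22) and NPR3, a natriuretic peptide receptor (0.345). The neighbours of SDC3 were SOX12, CPNE1 and PRDX1 (0.0679, 0.0818 and 0.0819), and those of GPC1 were ECSIT, ASIC1 and NAV2 (0.147, 0.152 and 0.153). GPC6 was nearest to TGM2, a transglutaminase (0.262), SHISA9 (0.27) and SLC16A14 (0.299). GPC4, with the fewest counts, had the most distant neighbours, PRR5, CFAP251 and MICAL2 (0.433, 0.481 and 0.494). With 4 groups the profiles have few independent points, and nearness here describes only these 8 libraries.

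**Figure D5:**
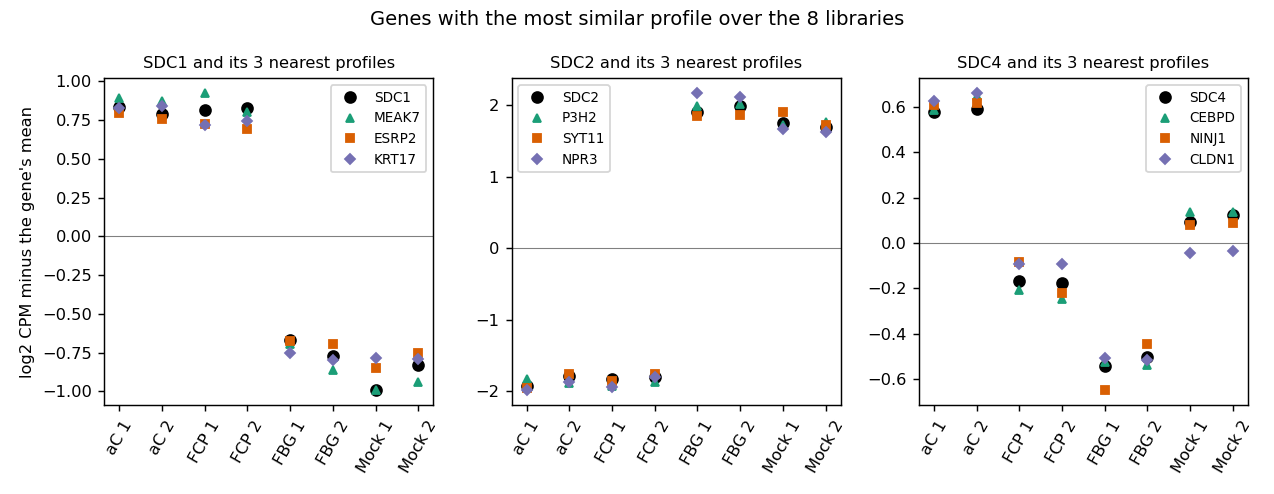
Log2 CPM minus the gene's own mean (y axis) in each library of aC, FCP, FBG and Mock, for SDC1, SDC2 and SDC4 (black circles) with their 3 nearest genes. SDC1 is high and SDC2 low in all aC and FCP libraries, and SDC4, CEBPD, NINJ1 and CLDN1 are highest in aC.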

How the data were processed

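RNA of 8 libraries was measured as raw counts of read pairs per gene, deposited by the authors, who per the file headers ran featureCounts 1.6.0 in paired-end mode over exons, with neither a strand nor a multi-mapping option. The submitters' processing notes give featureCounts 1.6.2, and name GRCh38.p14, SAMtools 1.9, HISAT2 2.2.1 and Trimmomatic 0.39 without role or order. Without strand, reads of antisense partners cannot be told apart. Exon lengths are other values deposited by the authors in the same files.

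Counts were tested with edgeR 4.0.16 (robust quasi-likelihood, TMM, filterByExpr) in R 4.3.3. The fit took all 8 libraries and had 4 residual degrees of freedom, with Benjamini-Hochberg within each of 6 comparisons. Standard errors are the absolute log2 fold change over the square root of F. The fit was tested on simulated data in which few genes changed, in aC only. That does not test the scaling where most genes are called, as in aC and FCP against Mock. Alternatives were DESeq2 1.42.0, other scalings, no filter, only the 2 groups compared, leaving out each library, a replicate block and removal of GC content and length trends with mgcv 1.9.3. Genes were named by a rule: all members, up to 2 called genes per direction and list with the smallest p-values, and EXT1, NDST1, HS2ST1, SULF1, SULF2, HPSE and SDCBP. The members and lists were chosen with earlier results of these data known. The chain assembly, modification, other proteoglycan, tail partner and receptor lists each held 1 gene with a second entry in the annotation. The fibroblast marker list held 2 such genes and the blood and plasma cell list 1. Counting intervals and floors cover counting error only, and the other 95% intervals of log2 differences come from the edgeR fit.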

Additional observations from a re-analysis of the deposited data

How the results depend on the processing

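Of 42 member fold changes, 33 were called, 30 of these kept direction and call in every alternative, and none of the 33 changed sign. The 3 that lost a call (SDC1 and SDC2 in FBG against Mock, SDC4 in FCP against Mock) are given above, and the cause was not tested. The replicate numbers did not pair the libraries: same-numbered libraries correlated at -0.06 to 0.086 in their deviations. With the replicate block, 2 members were called in aC against FCP, as also with no filter and, among fits that left out 1 library (1 to 2), without FCP replicate 2. The added call was GPC1 each time (block: 0.11, adjusted p = 0.00978). The number of all genes called there was 1470, 877 with DESeq2's Wald test and 853 to 909 with 1 library left out. With library totals as the only scaling, the median over all genes shifted to 0.29 in aC, 0.28 in FCP and 0.13 in FBG against Mock, and the higher and lower calls were 7782 and 4489, 7679 and 4493, and 5186 and 3010, against 6199 and 5984, 6085 and 5884, and 3941 and 4285 with TMM.

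Signs turned only for members with no call. SDC3 was at -0.01 (without FBG replicate 1) and -0.15 (GC content and length trends removed, with or without the replicate block) in FCP against FBG, and in aC against FBG at 0.01 (DESeq2 size factors, DESeq2's Wald test, without aC replicate 1), 0.11 (library totals) and 0 (no filter). Leaving out 1 library moved it between -0.03 and 0.01 there. In aC against FCP, leaving out 1 library moved SDC2 between -0.11 and 0.02, GPC6 between -0.02 and 0.18 and SDC1 between -0.04 and 0.01. Among listed genes the sign turned for HS2ST1 (-0.21, -0.41 and -0.43), ADAM10 (-0.30 and -0.34), NDST1 (0.02), GIPC1 (0.06), EXTL3 (-0.02), PDCD6IP (-0.27) and SDCBP (-0.11) with GC content and length trends removed, with or without the block. It also turned for NDST1 with library totals (0.03, 0.19 and 0.21) and for SULF2 in FBG against Mock without FBG replicate 2 (range 0 to 0.08). GC content was known for 85.7% of tested genes. Its rank correlation with the log2 fold changes against Mock was -0.23 in aC, -0.27 in FCP and -0.41 in FBG. At 26 to 177 summed counts per group, depth limits GPC4.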
